A study of Mus musculus with 8 samples.

Results

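The genes described here are 10 genes that carry a calcium signal from the plasma membrane and the endoplasmic reticulum to calmodulin-dependent kinases: Stim1, Orai1, Itpr1, Itpr2, Camk2a, Camk2b, Camk2d, Camk2g, Camkk2 and Camk1d. They were taken by symbol from the 21899 genes of the deposited table, and all 10 were present under a single identifier each. They were chosen by function and with their read counts in deficient against WT livers already known, so their levels and folds are given as a description, with no p-value.

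RNA was sequenced from 8 mouse livers taken 8 h after concanavalin A (ConA), a lectin used to set off T cell driven liver injury in mice. Of these, 4 were P2X4R-deficient (called a P2X4R knockdown in the sample labels and P2X4R-/- in the series design) and 4 were wild type (WT), and both groups had received ConA. P2X4R is the ATP-gated cation channel encoded by P2rx4, which admits calcium. The labels give no age, sex, strain or batch, do not state whether the libraries are from different animals, and do not say how or in which cells P2X4R was removed. Livers without ConA were not analysed here.

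Calcium enters the cytosol through channels in the plasma membrane and through channels that release it from the endoplasmic reticulum. In store-operated entry, STIM proteins sense that the store is empty and open ORAI pores in the plasma membrane. The IP3 receptors encoded by the Itpr genes release the store when hormones or other signals generate IP3, and types 1 and 2 are the main forms in hepatocytes. Calcium bound to calmodulin activates the CaM kinases: CaM kinase II, built from the products of 4 genes, CaM kinase kinase 2, which activates AMPK and the CaM kinases I and IV, and CaM kinase I delta. In liver this signalling is known for its part in glucose production, bile secretion and regeneration, and in T cells store-operated entry drives activation.

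The libraries held 15445285 to 16604190 counted reads. P2rx4 itself (ENSMUSG00000029470) was at 24.7 ± 5.33 CPM in deficient livers and 55.9 ± 8.31 CPM in WT livers (SD, n = 4 each), where CPM is the read count scaled to 1000000 reads after TMM adjustment of library sizes. Its log2 fold change, here and below deficient over WT, was -1.18 (SE 0.19, edgeR adjusted p = 0.00481), so its RNA was lowered and not absent. Which stretch of the gene was altered is not stated in the labels. Hepatocyte markers were abundant in every library, with a summed level over 8 markers of 91658 to 120878 CPM in deficient and 121000 to 140812 CPM in WT livers.

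Promoter sequences of the 4 genes that the fit described below called are shown so that the genes can be compared at their start sites. They are RefSeq windows from 250 bases before to 50 bases after an annotated start on GRCm38.p6, read 5′ to 3′ on the gene's strand, and capitals mark the GC box GGGCGG on either strand.
Camk2b, chr11:6065699-6065998, minus strand: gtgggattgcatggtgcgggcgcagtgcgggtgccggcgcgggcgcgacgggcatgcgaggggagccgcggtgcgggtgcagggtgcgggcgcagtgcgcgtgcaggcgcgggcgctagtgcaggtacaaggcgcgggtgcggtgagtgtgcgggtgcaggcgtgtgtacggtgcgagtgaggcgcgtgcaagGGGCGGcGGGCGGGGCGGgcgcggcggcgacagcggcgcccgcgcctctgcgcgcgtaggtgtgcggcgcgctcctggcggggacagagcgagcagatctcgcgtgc
Orai1, chr5:123014824-123015123, plus strand: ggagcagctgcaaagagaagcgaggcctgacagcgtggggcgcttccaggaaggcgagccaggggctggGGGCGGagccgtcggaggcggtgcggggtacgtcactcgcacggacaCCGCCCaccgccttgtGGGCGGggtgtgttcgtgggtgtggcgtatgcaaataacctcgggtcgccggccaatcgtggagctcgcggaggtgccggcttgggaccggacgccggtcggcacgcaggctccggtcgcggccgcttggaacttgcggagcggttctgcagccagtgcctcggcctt
Stim1, chr7:102267569-102267868, plus strand: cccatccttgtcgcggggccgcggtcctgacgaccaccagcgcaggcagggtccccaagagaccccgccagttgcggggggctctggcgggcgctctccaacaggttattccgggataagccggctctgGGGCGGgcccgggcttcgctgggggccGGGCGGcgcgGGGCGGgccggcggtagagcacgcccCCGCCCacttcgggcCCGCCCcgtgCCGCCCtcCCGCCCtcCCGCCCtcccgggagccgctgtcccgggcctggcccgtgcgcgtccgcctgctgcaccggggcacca
Camk1d, chr2:5714713-5715012, minus strand: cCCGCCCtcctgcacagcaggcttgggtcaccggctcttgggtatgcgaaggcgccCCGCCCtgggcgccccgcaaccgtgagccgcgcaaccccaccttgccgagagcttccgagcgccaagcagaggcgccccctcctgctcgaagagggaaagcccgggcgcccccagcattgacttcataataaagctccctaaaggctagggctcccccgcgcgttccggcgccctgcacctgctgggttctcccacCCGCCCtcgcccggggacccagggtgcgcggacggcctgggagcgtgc

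Windows were found for 7 of the 10 genes, and the first listed window was used for Camk1d, which has a second. All 7 windows held the GC box, against 35.7% of the 32851 windows of the RefSeq table. The windows of Camk2b, Orai1 and Camk1d held 3 matches each and that of Stim1 held 8. The share of G and C bases ran from 70.3% to 78.7% over the 7 genes, against a median of 52.7% over all windows. The TATA motif TATAAA was in 0 of the 7 windows and in 13.6% of all windows, and the full cAMP response motif TGACGTCA in 0 of the 7 and in 1.79% of all. Its core TGACG was found once in Orai1 and once in Stim1, against 20.8% of all windows, and the NFAT core GGAAA once in Camk1d and once in Camk2d, against 61.3% of all. Each motif was searched on both strands, and a match describes letters in the window only. The GC share was 77.3% in Camk2b and 70.3% in Orai1, which were higher in deficient livers, and 78.7% in Stim1 and 71.3% in Camk1d, which were lower.

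**Figure D1:**
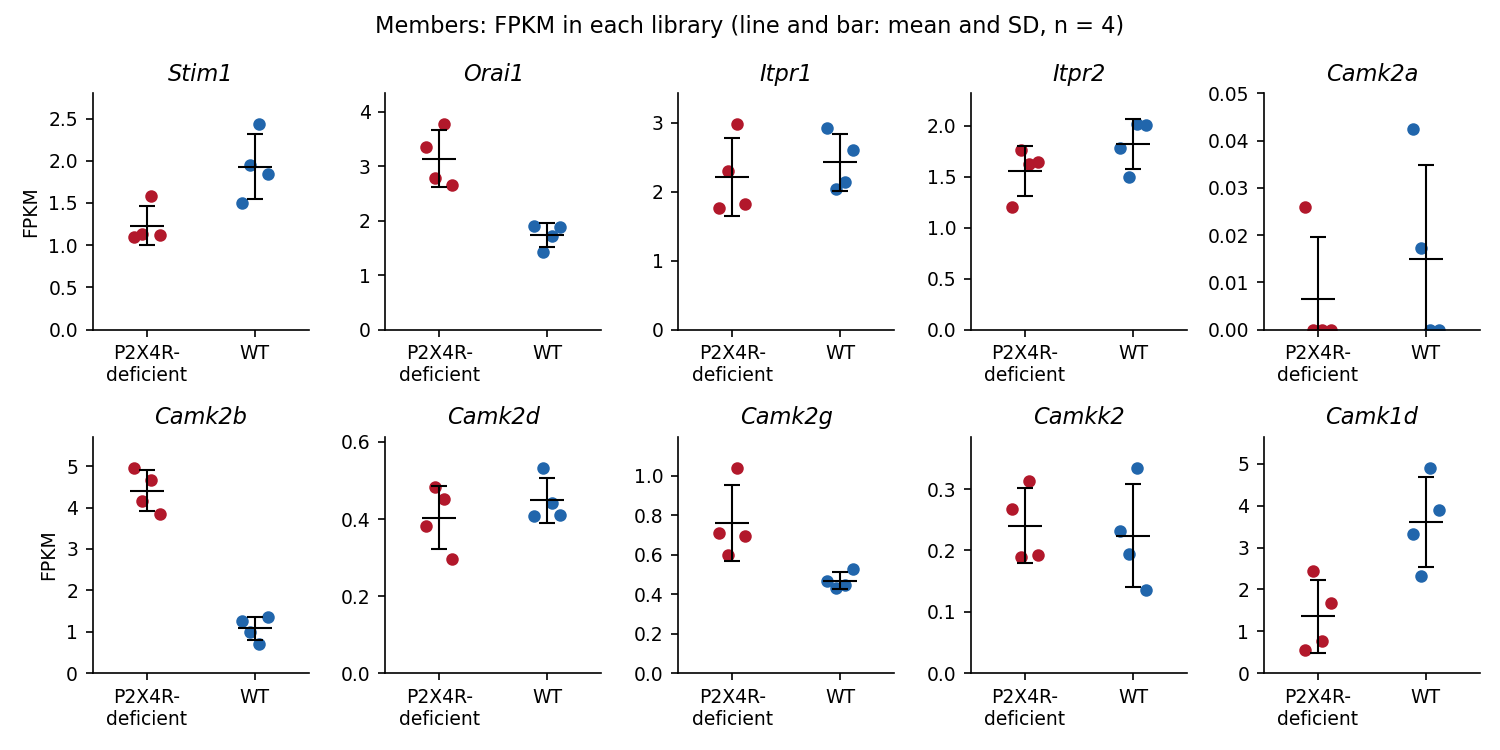
Levels of the 10 genes in each library in FPKM (reads scaled by listed gene length and by the library's read total), P2X4R-deficient livers left and WT livers right, with mean and SD as line and bar. Camk2b and Orai1 lie higher in every deficient library than in any WT library, the highest deficient values of Stim1 (1.58) and Camk1d (2.44) lie just above the lowest WT values (1.49 and 2.33), and Camk2a is at or near 0 throughout.

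Of the 10 genes, 9 passed the expression filter and were part of the fit over 11380 genes, while Camk2a did not. At an adjusted p under 0.05 the fit called 4 of the 9, Camk2b and Orai1 higher and Stim1 and Camk1d lower, where it called 19.9% of all genes tested (9.27% higher and 10.6% lower). Higher genes made up 46.6% of all calls, and 67.2% with libraries scaled by size alone, under which the same 4 members were called in the same directions. For 5 of the 9, those 4 and Camk2g, the groups had no overlap in CPM, against 24.9% of all genes tested. Because the genes were proposed with this contrast known, nothing is read from these counts. Without WT 3 the fit called 1 of the 9, Camk2b, and without deficient 3 it called 2, Camk2b and Stim1. Calls fell over the whole table too, from 2264 of 11380 genes to 982 of 11619 without WT 3 and 1224 of 11560 without deficient 3. The median log2 fold change of the 9 was -0.27, beside -0.0015 over all genes tested. The deposited table lists 0 of the 10 as overlapping another gene.

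Stim1 (ENSMUSG00000030987; chromosome 7, 101917013 to 102086526 on the plus strand) encodes the endoplasmic reticulum calcium sensor that opens ORAI pores. It was at 10.6, 11.6, 15.3 and 11.1 CPM in deficient libraries 1 to 4, against 15.5, 22, 27.3 and 19.9 CPM in WT libraries 1 to 4. The highest deficient library, the third, lay just under the lowest WT library, the first, and on the FPKM scale these libraries were in the opposite order, at 1.58 in deficient 3 and 1.49 in WT 1. Mean levels were 12.1 ± 2.12 CPM in deficient and 21.2 ± 4.90 CPM in WT livers (SD, n = 4 each), a log2 fold change of -0.80 (SE 0.20) or 57.4% of the WT level. Without WT 3 the estimate was -0.66 and the fit no longer called it.

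Orai1 (ENSMUSG00000049686; chromosome 5, 123153137 to 123168519 on the plus strand) encodes the pore subunit of the store-operated channel. It was at 7.18, 6.34, 8.04 and 5.80 CPM in deficient libraries 1 to 4, from 101 to 139 reads each, against 4.37, 3.59, 4.29 and 4.49 CPM in WT libraries 1 to 4, from 51 to 70 reads each. All 4 deficient libraries were above all 4 WT libraries. The log2 fold change was 0.71 (SE 0.20), 163% of the WT level, opposite in direction to that of its partner Stim1. The call was lost without deficient 1 (0.68), deficient 3 (0.62), WT 2 (0.65), WT 3 (0.72) or WT 4 (0.76), while the estimate stayed between 0.62 and 0.76 with any library left out.

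The balance of channel and sensor RNA was set out within each library, where scaling between libraries has no part. On the FPKM scale, Orai1 divided by Stim1 was 3.06, 2.46, 2.38 and 2.36 in deficient libraries 1 to 4, against 1.27, 0.736, 0.709 and 1.02 in WT libraries 1 to 4. Per length, Orai1 was above Stim1 in every deficient library and lay on both sides of it in the WT libraries. These levels depend on the lengths the table lists, 2295 bases for Orai1 and 10371 bases for Stim1. By reads, which do not correct for length, Stim1 exceeded Orai1 in every library of both groups.

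The other STIM and ORAI genes were not among the 10, and they are given with their tests. Orai3 (ENSMUSG00000043964), a further pore subunit, rose by a log2 fold change of 1.55 (SE 0.22, edgeR adjusted p = 0.00419). It was at 11.5, 6.46, 10.8 and 10.1 CPM in deficient libraries 1 to 4 and at 3.16, 3.09, 3.50 and 3.46 CPM in WT libraries 1 to 4, and it passed under all 16 alternatives. Stim2, the second sensor gene, did not pass and averaged 12.9 ± 1.63 CPM in deficient livers and 14.4 ± 1.94 CPM in WT livers (SD, n = 4 each, edgeR adjusted p = 0.512). Orai2 did not pass either and averaged 2.15 ± 1.05 CPM in deficient livers and 1.52 ± 1.07 CPM in WT livers (SD, n = 4 each, edgeR adjusted p = 0.516). On the FPKM scale Orai3 was at 4.78 ± 1.21 in deficient and 1.47 ± 0.0997 in WT livers (SD, n = 4 each).

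Both IP3 receptor genes had overlapping groups. Itpr1 (ENSMUSG00000030102; chromosome 6, 108190057 to 108528070, plus strand) was at 30.1, 41.7, 50.7 and 31.8 CPM in deficient libraries 1 to 4, against 53.5, 40.7, 42.6 and 49.5 CPM in WT libraries 1 to 4. Deficient 1 and 4 were below every WT library and deficient 3 was above 3 of them, so the spread within the deficient group was as large as the difference between the groups (log2 fold change -0.27, SE 0.19). Itpr2 (ENSMUSG00000030287; chromosome 6, 146009797 to 146403721, minus strand) was at 16.5, 25.9, 22.3 and 23.2 CPM in deficient libraries 1 to 4, against 26.3, 24.1, 32.2 and 30.9 CPM in WT libraries 1 to 4. Only deficient 2 reached into the WT range, and the estimate was -0.37 (SE 0.17), which the fit did not call. Itpr3, the third receptor gene and not one of the 10, averaged 1.54 ± 0.178 CPM in deficient livers and 1.58 ± 0.692 CPM in WT livers (SD, n = 4 each, edgeR adjusted p = 0.967).

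Camk2b (ENSMUSG00000057897; chromosome 11, 5919644 to 6016362 on the minus strand) encodes the beta isoform of CaM kinase II, best known from brain and muscle. It had 699, 606, 683 and 584 reads in deficient libraries 1 to 4, against 180, 142, 107 and 200 reads in WT libraries 1 to 4. As CPM these were 42.2, 37.6, 39.5 and 33.6 in deficient and 11.4, 9.98, 7.06 and 12.8 in WT libraries. The lowest deficient library was well above the highest WT library, and the deficient libraries differed little among themselves, with a coefficient of variation of 9.49%, against 23.9% in WT libraries. Mean levels were 38.2 ± 3.63 CPM in deficient and 10.3 ± 2.46 CPM in WT livers (SD, n = 4 each). The log2 fold change was 1.89 (SE 0.19), or 3.70-fold, which placed Camk2b 56th from the top of the 11380 genes. The estimate was 1.74 to 2.03 when a library was left out and 1.38 in limma on log2(FPKM + 1).

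The other CaM kinase II genes were low in both groups. Camk2g (ENSMUSG00000021820; chromosome 14, 20784943 to 20844156, minus strand), the gamma isoform, was at 4.22, 3.79, 6.19 and 4.25 CPM in deficient libraries 1 to 4 and at 2.97, 3.02, 3.10 and 3.53 CPM in WT libraries 1 to 4. Its groups did not overlap, but the estimate of 0.55 (SE 0.24) was not called, and it was 0.37 without deficient 3, the highest library. Camk2d (ENSMUSG00000053819; chromosome 3, 126389951 to 126639975, plus strand), the delta isoform, averaged 8.66 ± 1.90 CPM in deficient livers and 10.7 ± 1.75 CPM in WT livers (SD, n = 4 each), with overlapping groups and an estimate of -0.30 (SE 0.21). Camk2a (ENSMUSG00000024617; chromosome 18, 61058690 to 61121224, plus strand), the alpha isoform known from neurons, had 3, 0, 0 and 0 reads in deficient libraries 1 to 4 and 5, 2, 0 and 0 reads in WT libraries 1 to 4. A count of 0 allows up to 3 reads, so no difference in Camk2a was detectable at this depth.

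**Figure D2:**
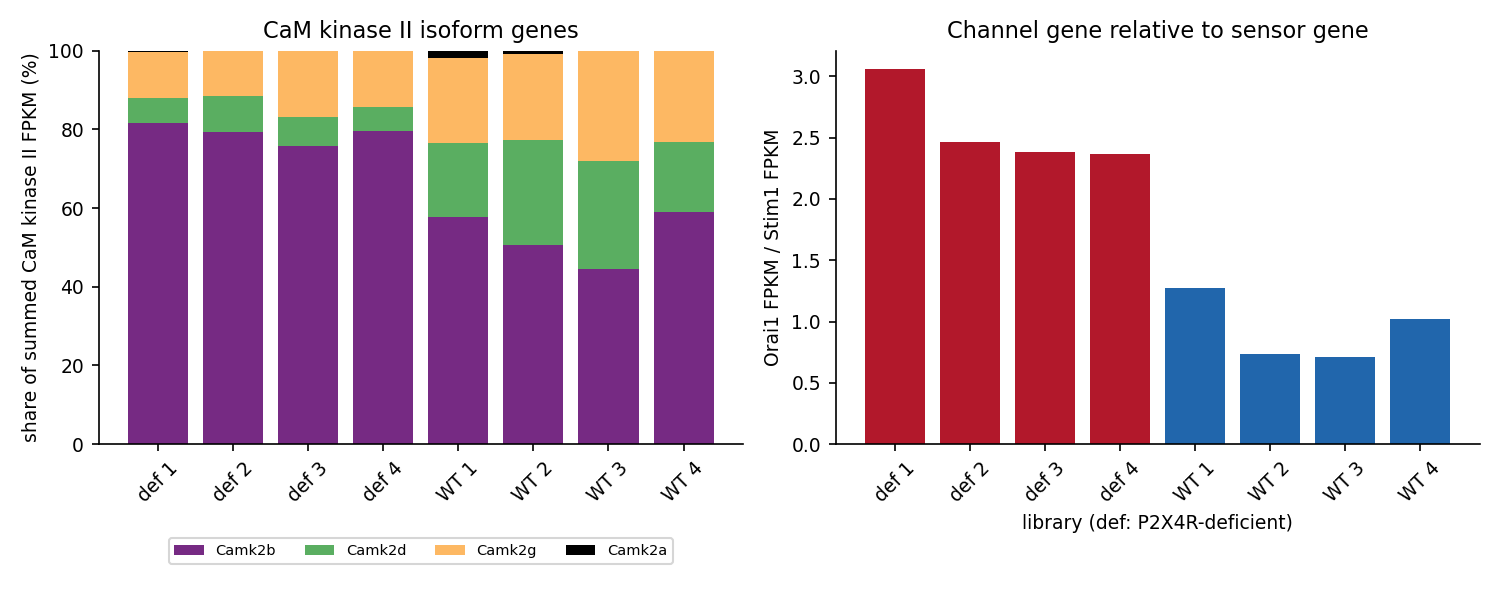
Left, share of each CaM kinase II gene in the summed FPKM of the 4 genes in each library. Right, Orai1 FPKM divided by Stim1 FPKM in each library, with the 4 P2X4R-deficient libraries (def) left of the 4 WT libraries. Camk2b makes up 75.7% to 81.6% of the sum in deficient and 44.6% to 59.0% in WT libraries, and the Orai1 to Stim1 ratio is 2.36 to 3.06 in deficient and 0.709 to 1.27 in WT libraries.

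Per listed length, Camk2b was the leading CaM kinase II gene in all 8 libraries. By reads, which do not correct for length, Camk2d exceeded Camk2b in WT 2 (186 and 142 reads) and WT 3 (163 and 107 reads). The Camk2b share of the summed FPKM of the 4 genes was 79.1% ± 2.44 in deficient and 52.9% ± 6.71 in WT livers (SD, n = 4 each). Camk2g made up 13.6% ± 2.60 in deficient and 23.6% ± 2.97 in WT livers, and Camk2d 7.25% ± 1.43 in deficient and 22.8% ± 5.10 in WT livers (SD, n = 4 each). The sum itself was 5.58 ± 0.640 FPKM in deficient and 2.01 ± 0.300 FPKM in WT livers (SD, n = 4 each). These shares depend on the gene lengths the table lists, from 6401 bases for Camk2g to 22493 bases for Camk2d, and they do not show which isoforms were translated.

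Camk1d (ENSMUSG00000039145; chromosome 2, 5298268 to 5719326 on the minus strand) encodes CaM kinase I delta, a kinase known from human granulocytes. It was at 3.80, 18.0, 5.38 and 11.8 CPM in deficient libraries 1 to 4, against 24.7, 18.8, 39.4 and 30.0 CPM in WT libraries 1 to 4. Deficient 1 and 3 were far below the rest, while deficient 2 nearly reached WT 2 in CPM and passed it in FPKM, at 2.44 in deficient 2 and 2.33 in WT 2. Mean levels were 9.74 ± 6.48 CPM in deficient and 28.2 ± 8.75 CPM in WT livers (SD, n = 4 each), a log2 fold change of -1.54 (SE 0.41). Its coefficient of variation in deficient livers, 66.6%, was the highest of the 9 genes in either group. Without deficient 3 or without WT 3 the estimate was -1.33 in each case and was not called, and without deficient 2 it was -2.01.

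Camkk2 (ENSMUSG00000029471; chromosome 5, 122869233 to 122917472 on the minus strand) encodes CaM kinase kinase 2, an activator of AMPK. It had 24 to 60 reads per library, with 2.72, 2.05, 3.18 and 2.01 CPM in deficient libraries 1 to 4 and 2.53, 2.32, 3.96 and 1.54 CPM in WT libraries 1 to 4. All 4 deficient libraries lay within the WT range. The estimate was -0.05 (SE 0.34), and it lay between -0.23 and 0.22 with a library left out. The summed FPKM of Camkk2, Camk1d and the 4 CaM kinase II genes was 6.71 to 7.86 in deficient and 4.51 to 6.84 in WT libraries, so the groups overlapped.

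The order of the 10 genes by FPKM, which depends on the listed gene lengths, differed between the groups. By CPM, which does not correct for length, Itpr1 averaged 38.6 and Camk2b 38.2 in deficient livers. In WT livers Itpr1 averaged 46.6 CPM and Camk1d 28.2 CPM. In deficient livers Camk2b was highest at 4.41 ± 0.496 FPKM, with every library above every Orai1 value, and Orai1 followed at 3.14 ± 0.521 FPKM (SD, n = 4 each). Itpr1 at 2.21 ± 0.563, Itpr2 at 1.56 ± 0.247, Camk1d at 1.36 ± 0.865 and Stim1 at 1.23 ± 0.235 FPKM came next, each overlapping its neighbour in that order. In WT livers Camk1d was highest at 3.61 ± 1.08 FPKM, before Itpr1 at 2.43 ± 0.409, Stim1 at 1.93 ± 0.386, Itpr2 at 1.82 ± 0.245 and Orai1 at 1.74 ± 0.217 FPKM, again with neighbours overlapping. Camk2b, at 1.08 ± 0.284 FPKM in WT livers, was below all of these with no overlap. Camk2g, Camk2d, Camkk2 and Camk2a took the last 4 places in that order in both groups, Camk2g and Camk2d overlapping in WT but not in deficient livers. Within the deficient group, deficient 3 was the highest library for 5 of the 9 genes tested and deficient 1 and 4 the lowest for 4 each.

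**Figure D3:**
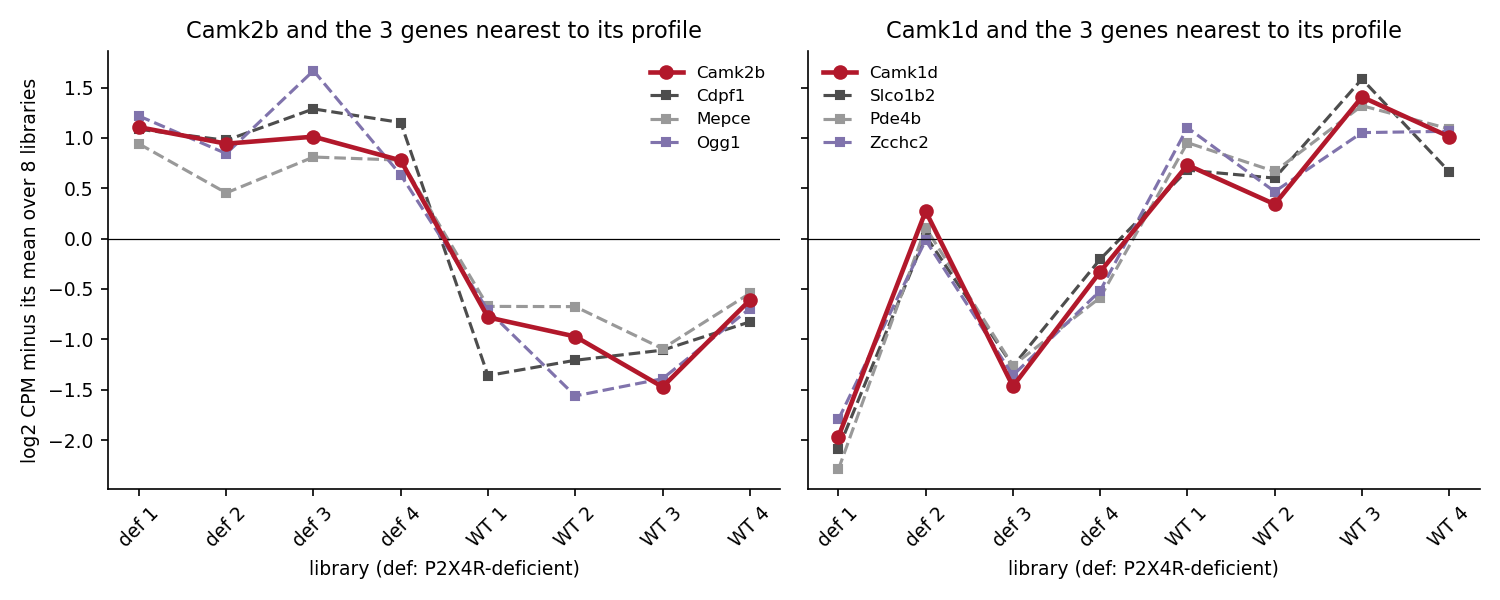
Log2 CPM minus its mean over the 8 libraries for Camk2b (left panel) and Camk1d (right panel), each with the 3 genes whose profile is nearest. P2X4R-deficient libraries (def) are left of WT libraries. The genes beside Camk1d, chosen for this likeness, follow its low values in deficient 1 and 3 and its higher values in deficient 2 and 4.

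The genes with the profile nearest to a member were found by the root mean square difference of mean-centred log2 CPM over the 8 libraries. For Camk2b, the member with the highest estimate, these were Cdpf1 at 0.26, the 7SK capping enzyme gene Mepce at 0.26 and the DNA repair glycosylase gene Ogg1 at 0.27. Cdpf1 had only 7 to 10 reads and Ogg1 5 to 10 reads per WT library, while Mepce had 99 to 149. For Camk1d, the member with the lowest estimate, they were Slco1b2, a hepatocyte uptake transporter for organic anions, at 0.21, Pde4b, a cAMP phosphodiesterase, at 0.23, and Zcchc2 at 0.23. Slco1b2 was at 45.7, 198, 80.7 and 169 CPM in deficient libraries 1 to 4 and at 311, 294, 582 and 308 CPM in WT libraries 1 to 4. Like Camk1d, to which it was matched over these same libraries, it was lowest in deficient 1 and 3 and highest in WT 3. Pde4b was at 64.4, 340, 132 and 210 CPM in deficient libraries 1 to 4 and at 611, 501, 788 and 672 CPM in WT libraries 1 to 4, the same order of deficient libraries.

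The 8 lists of other calcium genes held 149 genes, of which 98 were tested. Of these, 4 rose and 13 fell (17.3% called, beside 19.9% of all genes tested), and their median log2 fold change was -0.07. With libraries scaled by size alone, which raised the median over the whole table by 0.14, 13 rose and 10 fell. In the limma test on log2(FPKM + 1), which took 71 genes of the lists, 11 rose and 8 fell. The split by direction therefore depends on scaling, while the share called is near that of all genes. The number called was 11 without deficient 3 and 11 without WT 3, where calls over the whole table fell from 2264 to 1224 and 982. The deposited table's own annotation to the KEGG calcium signaling pathway, consulted after the files were read, covers 240 genes with 8 of the 10 members. Of its 104 tested genes outside the members, 6 rose and 18 fell (23.1%).

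**Figure D4:**
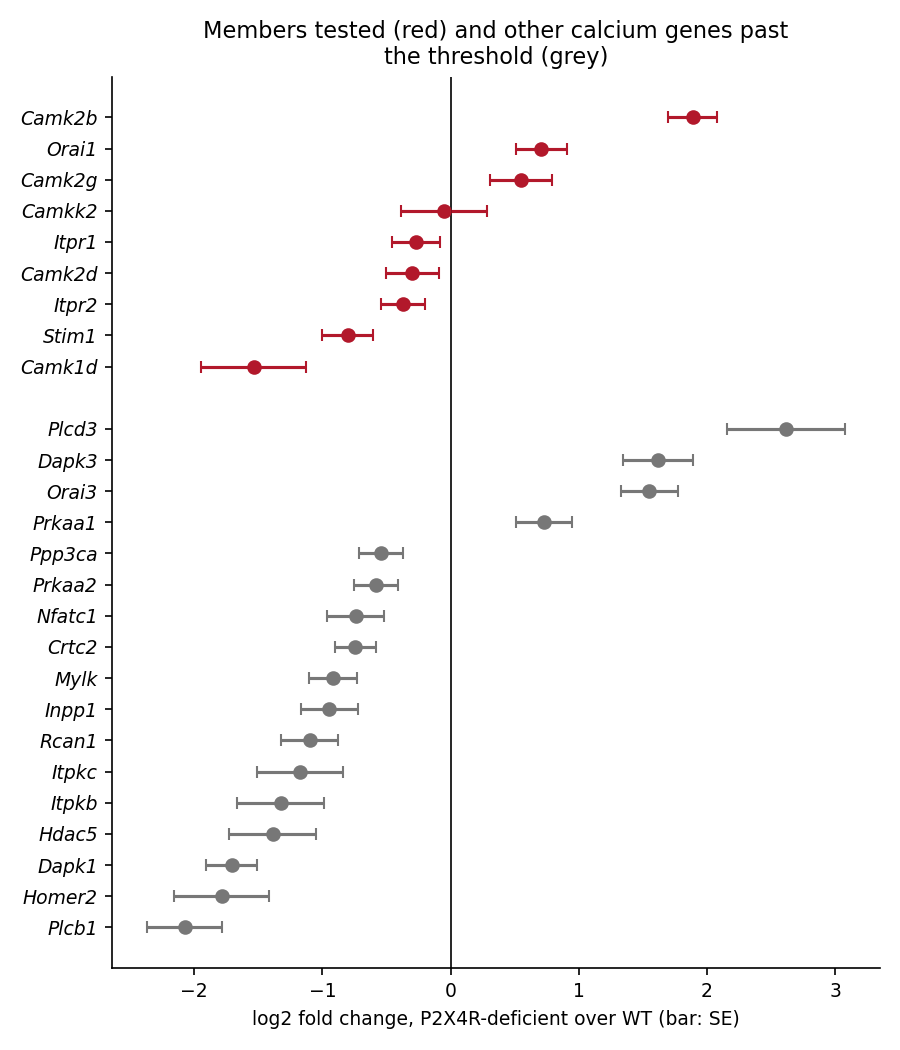
Log2 fold change of P2X4R-deficient over WT livers with its SE for the 9 members tested (red) and for the 17 genes of the other calcium lists past the threshold (grey). Camk2b at 1.89 and Camk1d at -1.54 are the outermost members, and 4 of the 17 list genes lie above 0 and 13 below.

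Partners of store-operated entry other than the members counted 1 rise, Orai3, and 1 fall among 9 tested (22.2% called, beside 19.9% of all genes tested). Homer2 (ENSMUSG00000025813), a scaffold that ties receptors to calcium stores, fell by 1.79 on the log2 scale used here (SE 0.37, edgeR adjusted p = 0.00993), to 1.36 ± 0.717 CPM in deficient livers against 4.69 ± 0.476 CPM in WT livers (SD, n = 4 each). Stimate, a junctional partner of STIM1, did not pass (0.33, SE 0.26), nor did Septin4 (-0.64, SE 0.40).

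In 3 lists no gene passed, where 19.9% of all genes tested did. Of all genes tested, 35.2% had an unadjusted p under 0.05. Of 12 genes for release from and pumping into the endoplasmic reticulum, 1 had an unadjusted p under 0.05 in edgeR. DESeq2 fitted 17 genes of this list and called 1, Tmco1, an endoplasmic reticulum calcium leak channel (-0.36, SE 0.13 in edgeR). Itpripl1 (0.58, SE 0.28), Itpripl2 (0.59, SE 0.30) and Ahcyl1, which encodes a binding protein of IP3 receptors (-0.20, SE 0.14), did not pass. Of 14 plasma membrane pumps, exchangers and other channels, 2 had an unadjusted p under 0.05 in edgeR. DESeq2 fitted 32 genes of this list and called 2, with Tpcn2 among them. The smallest edgeR p-values of the 14 were those of the endolysosomal channel gene Tpcn2 (1.03, SE 0.36), the plasma membrane pump gene Atp2b1 (-0.46, SE 0.17), the voltage-gated channel gene Cacna1d (-0.95, SE 0.45) and the channel kinase gene Trpm7 (-0.30, SE 0.16). Of 11 genes of mitochondrial calcium uptake, 3 had an unadjusted p under 0.05 in edgeR, and 2 rose with libraries scaled by size alone. DESeq2 called 0 of the 12 it fitted. The gatekeeper gene Micu2 was at 0.45 (SE 0.16), the pore gene Mcu at -0.41 (SE 0.18) and its regulator Mcur1 at 0.29 (SE 0.13). With a library left out, Itpripl1 passed without deficient 4 (adjusted p = 0.0342), Tpcn2 without WT 1 (adjusted p = 0.0239), Atp2b1 without deficient 2 (adjusted p = 0.0342) and Micu2 without WT 1 (adjusted p = 0.0298), all by edgeR. Tpcn2, Micu2 and Mcur1 also passed with libraries scaled by size alone and in limma.

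Among 12 genes of calmodulin and other calmodulin-regulated kinases, 1 rose and 2 fell (25% called, beside 19.9% of all genes tested). Dapk3 (ENSMUSG00000034974), a death-associated protein kinase, rose by 1.62 (SE 0.27, edgeR adjusted p = 0.00533), with 51.3 CPM in deficient 1 and 22 to 29.4 CPM in the other deficient libraries, against 6.82 to 11.9 CPM in WT libraries. Its relative Dapk1 (ENSMUSG00000021559) fell by 1.71 (SE 0.20, edgeR adjusted p = 0.00187), to 17.2 ± 5.19 CPM in deficient livers against 56.3 ± 4.16 CPM in WT livers (SD, n = 4 each). Mylk, the myosin light chain kinase gene, fell by 0.92 (SE 0.19, edgeR adjusted p = 0.0100).

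Calm2 and Calm3 encode calmodulin, which all the CaM kinases need. Neither passed, and their counts are uncertain where reads are shared with processed pseudogenes. Calm2 averaged 101 ± 11.5 CPM in deficient livers and 111 ± 8.30 CPM in WT livers (SD, n = 4 each, edgeR adjusted p = 0.544). Calm3 averaged 65.5 ± 22.4 CPM in deficient livers and 42.8 ± 6.76 CPM in WT livers (SD, n = 4 each, edgeR adjusted p = 0.0772), and it passed without deficient 1 (adjusted p = 0.0437). Calm3 also passed with libraries scaled by size alone (edgeR adjusted p = 0.0331). Camk1 averaged 5.79 ± 0.344 CPM in deficient livers and 5.95 ± 0.343 CPM in WT livers (SD, n = 4 each, edgeR adjusted p = 0.898). Camk4, with 3 to 8 reads per library, Camkk1, with 0 to 15, and Camk1g, with 0 reads in every library, were below the expression filter.

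Of 10 genes of calcineurin and NFAT, the calcium-activated phosphatase and the transcription factors it releases, 3 fell and 0 rose (30.0% called, beside 19.9% of all genes tested), with 6 at an unadjusted p under 0.05, beside 35.2% of all genes tested. Rcan1 (ENSMUSG00000022951), a calcineurin regulator that NFAT itself induces, fell by 1.10 (SE 0.22, edgeR adjusted p = 0.00949). It was at 51.6, 90.9, 47.7 and 71.0 CPM in deficient libraries 1 to 4 and at 128, 125, 181 and 126 CPM in WT libraries 1 to 4, and it passed under all 16 alternatives. Nfatc1 fell by 0.74 (SE 0.22, edgeR adjusted p = 0.0360) and Ppp3ca, a calcineurin catalytic subunit, by 0.54 (SE 0.17, edgeR adjusted p = 0.0414). Nfatc1 did not pass without deficient 1, deficient 3, WT 1, WT 3 or WT 4 (adjusted p from 0.0683 to 0.0884), and Ppp3ca passed without WT 1 but with no other library left out (adjusted p from 0.0607 to 0.128). Neither passed with libraries scaled by size alone, where 3 genes of this list rose and 1 fell. Rcan3 did not pass (1.46, SE 0.51, edgeR adjusted p = 0.0608), except with libraries scaled by size alone (adjusted p = 0.0459).

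Of 14 genes that make or remove IP3, 1 rose and 4 fell (35.7% called, beside 19.9% of all genes tested). Plcb1 (ENSMUSG00000051177), a phospholipase C activated by G proteins, fell by 2.07 (SE 0.29, edgeR adjusted p = 0.00419), to 2.99 ± 1.23 CPM in deficient livers against 12.6 ± 3.01 CPM in WT livers (SD, n = 4 each). Plcd3 (ENSMUSG00000020937), another phospholipase C, rose by 2.62 (SE 0.46, edgeR adjusted p = 0.00603), to 4.42 ± 2.14 CPM in deficient livers against 0.720 ± 0.390 CPM in WT livers (SD, n = 4 each). Inpp1, an inositol phosphate phosphatase, fell by 0.95 (SE 0.22, edgeR adjusted p = 0.0153). Itpkb, a kinase that consumes IP3, fell by 1.32 (SE 0.34, edgeR adjusted p = 0.0204), with 36.2 CPM in WT 1 and 12.2 to 17.7 CPM in the other WT libraries. It was not called without deficient 3 (-1.12, adjusted p = 0.0545), where the list had 2 falls.

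Of 16 substrates and effectors of the CaM kinases, 1 rose and 3 fell (25% called, beside 19.9% of all genes tested). The catalytic subunits of AMPK, the kinase that CaM kinase kinase 2 activates, changed in opposite directions. Prkaa1 rose by 0.73 (SE 0.22, edgeR adjusted p = 0.0360), at 8.82 ± 0.600 CPM in deficient and 5.32 ± 1.42 CPM in WT livers (SD, n = 4 each). Prkaa2 fell by 0.58 (SE 0.17, edgeR adjusted p = 0.0337), at 15.5 ± 2.36 CPM in deficient and 23.2 ± 3.53 CPM in WT livers (SD, n = 4 each). Neither call held with every library left out: Prkaa1 did not pass without deficient 1, 2, 3 or 4 or WT 1 or 3 (adjusted p from 0.0531 to 0.105), and Prkaa2 not without deficient 1, 3 or 4 or WT 3 or 4 (adjusted p from 0.0511 to 0.107) or with libraries scaled by size alone (-0.44, adjusted p = 0.0820). Crtc2, a CREB coactivator of gluconeogenesis, fell by 0.74 (SE 0.16, edgeR adjusted p = 0.0114) and passed under all 16 alternatives. Hdac5, a deacetylase that CaM kinases export from the nucleus, fell by 1.39 (SE 0.34, edgeR adjusted p = 0.0179), but not past the threshold without WT 3 (-1.30, adjusted p = 0.0525). The list had 1 call without WT 3 and 2 calls without deficient 1, 3 or 4. Calls over the whole table also fell in these fits, from 2264 to 982 without WT 3. They were 1482, 1224 and 1752 without deficient 1, 3 and 4.

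**Figure D5:**
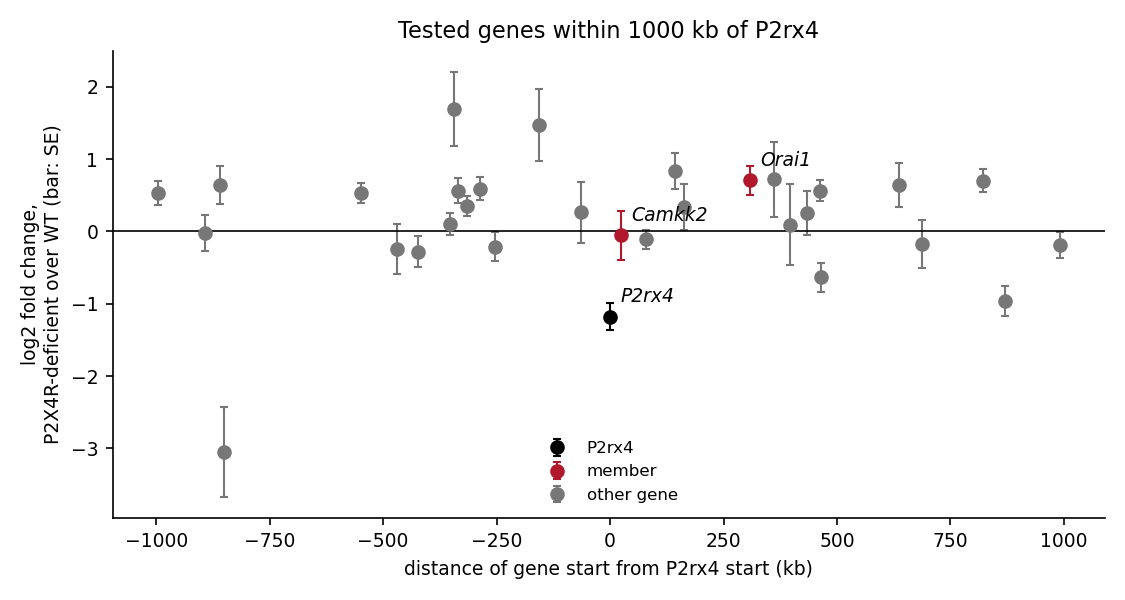
Log2 fold change of P2X4R-deficient over WT livers with its SE against the distance of a gene's listed start from that of P2rx4, for tested genes within 1000 kb. Camkk2 lies beside P2rx4 with an estimate near 0, Orai1 lies 307530 bases away at 0.71, and genes on both sides have estimates above and below 0.

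Both Camkk2 and Orai1 are neighbours of P2rx4 on chromosome 5, a feature the choice by symbol did not use. The listed end of P2rx4 (chromosome 5, 122845607 to 122867801, plus strand) and the listed start of Camkk2 are 1431 bases apart, and the genes face each other tail to tail. The listed start of Orai1 is 307530 bases from that of P2rx4, with 4 tested genes starting between them. Within 1 Mb of P2rx4, 28 other genes were tested, of which 8 rose and 3 fell (39.3% called, beside 19.9% of all genes tested), with a median log2 fold change of 0.30. The number called was 6 without WT 1, 5 without deficient 4 or WT 4, 4 without deficient 3 and 3 without WT 3, and with libraries scaled by size alone 10 rose and 2 fell. Calls over the whole table fell too, from 2264 of 11380 genes to 1890 of 11503 without WT 1. They were 1752 of 11552 without deficient 4 and 1677 of 11624 without WT 4. Without deficient 3 they were 1224 of 11560, beside 14.3% called near P2rx4. Without WT 3 they were 982 of 11619, beside 10.7% called near P2rx4. The nearest tested genes did not pass: P2rx7, an ATP-gated channel gene, was at 0.26 (SE 0.42) and Anapc5, a cell cycle ligase subunit gene, at -0.11 (SE 0.13). The place of Orai1 beside the altered gene and the loss of the receptor cannot be told apart, because all deficient libraries share both.

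Of 49 cell markers tested, 12 were called (24.5%, beside 19.9% of all genes tested), and in bulk liver RNA fewer cells of a type and less RNA per cell cannot be told apart. Of 6 Kupffer cell markers 3 fell, with a summed level of 24.5 to 29.9 CPM in deficient and 28.7 to 101 CPM in WT livers. Of 8 neutrophil markers, 7 of them tested, 2 rose, with 81.3 to 160 CPM in deficient and 22.6 to 90.5 CPM in WT livers. Of 4 platelet markers, 3 of them tested, 2 fell, with 3.35 to 4.998 CPM in deficient and 6.99 to 9.36 CPM in WT livers. Of 9 T cell and NK cell markers, 5 of them tested, 1 fell, with 11.6 to 16 CPM in deficient and 12.8 to 22 CPM in WT livers. Of 4 cholangiocyte markers 1 fell, with 22.5 to 104 CPM in deficient and 154 to 171 CPM in WT livers. Endothelial markers summed to 42.9 to 67.9 CPM in deficient and 36.0 to 91.4 CPM in WT livers with 1 of 6 lower, stellate and smooth muscle markers to 22.8 to 140 CPM in deficient and 33.5 to 70.03 CPM in WT livers with 1 of 6 tested lower, and 1 of 8 hepatocyte markers was lower. Of 5 monocyte markers, 3 of them tested, and 4 B cell markers, 1 of them tested, 0 passed, with 10.2 to 15.9 CPM in deficient and 9.49 to 28.9 CPM in WT livers for monocytes and 0.664 to 2.24 CPM in deficient and 0.264 to 4.81 CPM in WT livers for B cells. None of the markers listed was without reads, and the part of these cells in the differences of the 10 genes was not tested.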

How the data were processed

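Liver RNA was profiled in 8 libraries, 4 P2X4R-deficient and 4 WT, grouped by the genotype in the labels. Trizol extraction, poly-T bead selection, random priming and Illumina NovaSeq sequencing were used per the labels. Per the submitters' processing notes, cutadapt and HISAT2 2.0.5 were used; the counting program, strand setting and reference assembly were not given in the sources used here. The deposited table holds read counts, FPKM values made by the authors and the gene length they listed. FPKM recomputed from the deposited counts and lengths differed by at most 7e-05%. Coordinates are printed as the table lists them, without a build; starts equalled those of GENCODE M21 (GRCm38) for 2.4% of 21795 shared identifiers.

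Counts were tested with edgeR 4.0.16 in R 4.3.3 by its quasi-likelihood test with TMM scaling and its default filter, which left 11380 of 21899 genes, with Benjamini-Hochberg adjustment over these and a threshold of 0.05. The SE is the log2 fold change divided by the square root of F. P-values measure the spread between these samples, which may be technical. Replicates differed by more than counting noise (chi-square per degree of freedom 21.53 to 109.42). The upper limit allowed by 0 reads is 3 reads, for counting error only. In simulated counts of 11255 genes, 196 of them changed, the fit called 48.45% of 2-fold and 94.95% of 4-fold changes, with 7 false calls. A gene that did not pass may therefore still differ 2-fold.

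The 10 genes and the lists were chosen with earlier results of these data known. Named are P2rx4, the 10 genes, their direct relatives, up to 4 genes with the smallest p of each list, tested genes within 100000 bases of P2rx4, and the 3 nearest profiles to the highest and the lowest member. Some genes that this rule names are not reported here. Alternatives were library size alone, DESeq2 1.42.0, robust empirical Bayes, no filter, at least 1 CPM in 4 libraries, limma 3.58.1 on log2(FPKM + 1) or log2(FPKM + 0.1) for genes at 0.5 FPKM or more in 4 libraries, a block for replicate number, and leaving out each library. The pseudocount of 1 understates folds of genes at low FPKM.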

Additional observations from a re-analysis of the deposited data

Results flagged for a closer look

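Among 118 gene and group combinations of 4 libraries each, 7 had a library that stood apart from the other 3 by its gap relative to the range of the group, and chance alone flags about 1 in 20. Camk2a was at 0.181 CPM in deficient 1 and at 0 in the other deficient libraries, which is 3 reads. Stim2 was at 15.27 CPM in deficient 1 and at 11.9 to 12.4 CPM in the other deficient libraries. Dapk3 was at 6.82 CPM in WT 2 and at 11.7 to 11.9 CPM in the other WT libraries. Rcan1 was at 180.6 CPM in WT 3 and at 125 to 128 CPM in the other WT libraries. Crtc2 was at 74.22 CPM in WT 1 and at 53.5 to 55.7 CPM in the other WT libraries. Slco1b2 was at 582.4 CPM in WT 3 and at 294 to 311 CPM in the other WT libraries, and it did not pass without WT 3 (-1.31, edgeR adjusted p = 0.0641) or without deficient 3 (-1.44, edgeR adjusted p = 0.0611). Zcchc2 was at 34.45 CPM in WT 2 and at 51.7 to 53.5 CPM in the other WT libraries.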

How the results depend on the processing

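Over the left-out libraries the number of genes called in the whole table ran from 982 to 2388 against 2264 (1482 without deficient 1, 1224 without deficient 3 and 982 without WT 3), that of calcium genes outside the 10 from 11 to 18 against 17, that of the 10 genes from 1 to 4 against 4, and that of other genes near P2rx4 from 3 to 9 against 11. P2rx4 stayed called, between -1.29 and -1.04. The share of higher genes among those called in the whole table was 46.6% with TMM, 67.2% with library size alone and 66.3% with limma on log2(FPKM + 1). Same-numbered libraries did not deviate together in every pair (r = 0.132, -0.114, 0.0737 and -0.105). With 4 libraries per group these values give no sign of pairing by number but cannot exclude it. With the replicate block 1768 genes were called, among them 3 of the 10 (without Orai1, at 0.70). It also called 15 of the other calcium genes, 1 of the calcineurin and NFAT list in place of 3, and 6 near P2rx4. Nfatc1, Ppp3ca and Prkaa2 then had edgeR adjusted p = 0.0718, 0.0738 and 0.0544. Estimates of some genes that did not pass changed sign. Camkk2 was at 0.10 with library size alone and -0.23 to 0.22 with a library left out. Itpr3 was at 0.12 with library size alone, 0.0024 with no expression filter, 0.059 with the replicate block and -0.28 to 0.20 with a library left out. With library size alone, log2(FPKM + 1) and log2(FPKM + 0.1), Camk1 was at 0.10, 0.052 and 0.096, Calm2 at 0.0095, 0.0067 and 0.0067, and Anapc5 at 0.042, 0.035 and 0.039. P2rx7 was at -0.0064 to 0.50 with a library left out. The cause was not tested. Depth limits Camk2a, at 0 to 5 reads per library, and Camkk2, at 24 to 60.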
